A study of Mus musculus with 33 samples.

Results

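The transcripts of 9 nuclear genes for mitochondrial dynamics and mitochondrial genome maintenance were followed in single mouse oocytes at the germinal vesicle stage. The genes are Mfn1, Mfn2, Opa1 and Dnm1l (fusion and fission), Tfam, Polg and Polrmt (packaging, copying and transcription of mitochondrial DNA), Ppargc1a (a regulator of mitochondrial biogenesis) and Lars2 (mitochondrial leucyl-tRNA synthetase). They were picked by name from the 35321 genes of the deposited count table, with their values in these oocytes already known, so what follows describes them and tests nothing. The table holds 33 oocytes of C57BL6/Babr females aged 3 weeks, released from the ovary with collagenase: 10 Nlrp5 +/+, 16 Nlrp5 +/- and 7 Nlrp5 -/-. The mutant allele is a CRISPR/Cas9 frameshift deletion in Nlrp5, which encodes NALP5, a core protein of the subcortical maternal complex. Per the methods, the mutant and heterozygous mice shared litters, and most Nlrp5 +/+ mice came from the colony of origin instead. Each oocyte is named here by the number in its label.

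Oocytes pass from a non-surrounded nucleolus (NSN) to a surrounded nucleolus (SN) chromatin configuration as they finish growing, and transcription largely stops at the SN stage. The labels give the genotype only. The stage used here is the one printed or drawn in the study's figures, which the authors assigned from marker transcripts of the same oocytes. None of the 9 genes is among those markers, but the stage is not a measurement apart from the RNA. With it, the Nlrp5 +/+ oocytes were 4 NSN and 6 SN, the Nlrp5 +/- oocytes 9 NSN and 7 SN, and the Nlrp5 -/- oocytes 4 NSN and 2 SN, and oocyte 15, which is Nlrp5 -/-, had no stage. The Nlrp5 +/- stages were read from the colour bar of the staging heatmap, where oocytes 46 (taken as SN) and 48 (taken as NSN) were hard to read, and the study's text counts fewer staged Nlrp5 +/- oocytes than that bar shows. No label names the mouse of an oocyte, so each genotype is a single sample, and no p-value or standard error is given. SDs over oocytes describe cells and not animals.

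Oocyte mitochondria are inherited by the embryo, and their DNA is copied during oocyte growth rather than in the first cleavages. Mitofusins on the outer membrane and OPA1 on the inner membrane fuse mitochondria, and DRP1, the product of Dnm1l, divides them. TFAM coats and compacts the mitochondrial genome and is needed for its transcription by POLRMT, POLG copies it, and PGC-1alpha (Ppargc1a) co-activates nuclear factors such as NRF1 and the ETS protein GABP, which act on many nuclear genes for mitochondrial proteins. LARS2 charges the mitochondrial tRNAs for leucine.

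The sequence upstream of the RefSeq start of 6 of these genes is shown because it holds the letters of the motifs of those nuclear factors, or, for Lars2, lacks them. All 9 genes matched a RefSeq promoter of 300 bases (250 before and 50 after the start, build GRCm38.p6), and both strands were searched. The ETS motif CCGGAAG was found in 5 of the 9 genes (Mfn1, Dnm1l, Tfam, Polg and Polrmt) and in 8.86% of 32851 promoters of that length. The 10-base NRF1 palindrome, in capitals in the Opa1 line, was found in Opa1 alone and in 0.971% of promoters, and the GC box GGGCGG in all but Polrmt and Ppargc1a and in 35.7% of promoters. Counted from the RefSeq start, the ETS letters begin at -44 in Mfn1, -47 in Tfam and -38 in Polg, and, on the opposite strand, at -43 in Polrmt. Each line gives 120 bases, 5′ to 3′ on the strand of the gene, and capitals mark the ETS or NRF1 letters.
Mfn1: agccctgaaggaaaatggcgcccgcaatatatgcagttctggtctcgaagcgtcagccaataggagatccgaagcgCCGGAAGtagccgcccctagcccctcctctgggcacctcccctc
Tfam: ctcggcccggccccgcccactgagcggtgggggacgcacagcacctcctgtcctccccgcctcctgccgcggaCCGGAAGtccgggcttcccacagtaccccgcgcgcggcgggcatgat
Polg: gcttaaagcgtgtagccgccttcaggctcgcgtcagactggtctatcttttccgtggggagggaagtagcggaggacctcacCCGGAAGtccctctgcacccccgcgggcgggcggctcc
Polrmt: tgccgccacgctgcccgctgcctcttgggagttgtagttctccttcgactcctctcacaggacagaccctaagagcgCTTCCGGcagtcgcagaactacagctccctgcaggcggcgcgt
Opa1: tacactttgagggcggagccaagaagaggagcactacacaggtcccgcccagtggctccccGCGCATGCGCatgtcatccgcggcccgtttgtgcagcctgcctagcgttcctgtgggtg
Lars2: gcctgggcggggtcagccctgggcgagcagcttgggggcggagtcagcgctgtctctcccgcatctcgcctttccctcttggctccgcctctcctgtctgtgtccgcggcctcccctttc
The windows are chr3:32529362-32529481 (plus strand) for Mfn1, chr10:71238045-71238164 (minus) for Tfam, chr7:79466274-79466393 (minus) for Polg, chr10:79746582-79746701 (minus) for Polrmt, chr16:29579214-29579333 (plus) for Opa1 and chr9:123366807-123366926 (plus) for Lars2. These windows end at the RefSeq starts, which can differ from the gene coordinates of the count table given below: the whole Tfam window and the ETS letters of Polg lie inside those coordinates. A match is a run of letters and says nothing on whether a factor binds there.

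The total count on genes was 4223595 to 15573360 per oocyte. Deposited read totals were 4023242 to 13405901, and in most oocytes the count on genes was above the read total. The sources used here do not say why. Nlrp5 itself read 10369 to 29865 normalized counts in Nlrp5 +/+, 5189 to 13812 in Nlrp5 +/- and 1397 to 2621 in Nlrp5 -/- oocytes, so that the Nlrp5 -/- oocytes lay below all others. All 12 oocyte markers had counts in every oocyte. The 16 granulosa cell markers summed to 76.6 to 154 CPM (counts scaled to 1000000 per oocyte) in Nlrp5 +/+ and Nlrp5 +/- oocytes and to 83.5 to 439 CPM in the staged Nlrp5 -/- oocytes, with oocytes 14 and 13 highest at 439 and 255 CPM, and to 1132 CPM in oocyte 15. The 15 theca and stroma markers summed to 50.8 to 243 CPM in the other oocytes and to 320.3 CPM in oocyte 15. Each first index sequence occurred with a single genotype, and the labels do not say whether an index marks a preparation.

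Levels below are counts divided by median-of-ratios size factors over the 33 oocytes (normalized counts). Divided also by the length of the canonical transcript, the mean over the 33 oocytes was highest for Lars2, at 494 normalized counts per kilobase ± 730.3 (SD over oocytes), followed by Dnm1l at 304 ± 80.9. Polrmt (106 ± 51.2) and Mfn1 (99.8 ± 19.19) came next, then Opa1 (64.7 ± 14) and Tfam (64.2 ± 31.9), Mfn2 (37.1 ± 12.8) and Polg (26.2 ± 9.32). Polrmt and Mfn1 differed by less than the SD of either, as did Opa1 and Tfam, and Mfn2 and Polg by less than the SD of Mfn2. Lars2 led by its mean, and its median per kilobase, 206, was below that of Dnm1l, 287. Its count may include reads from a sequence that Lars2 shares with other places in the genome, described below, which was not tested. Ppargc1a, at 0.826 ± 1.05, was close to the limit of detection.

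**Figure D1:**
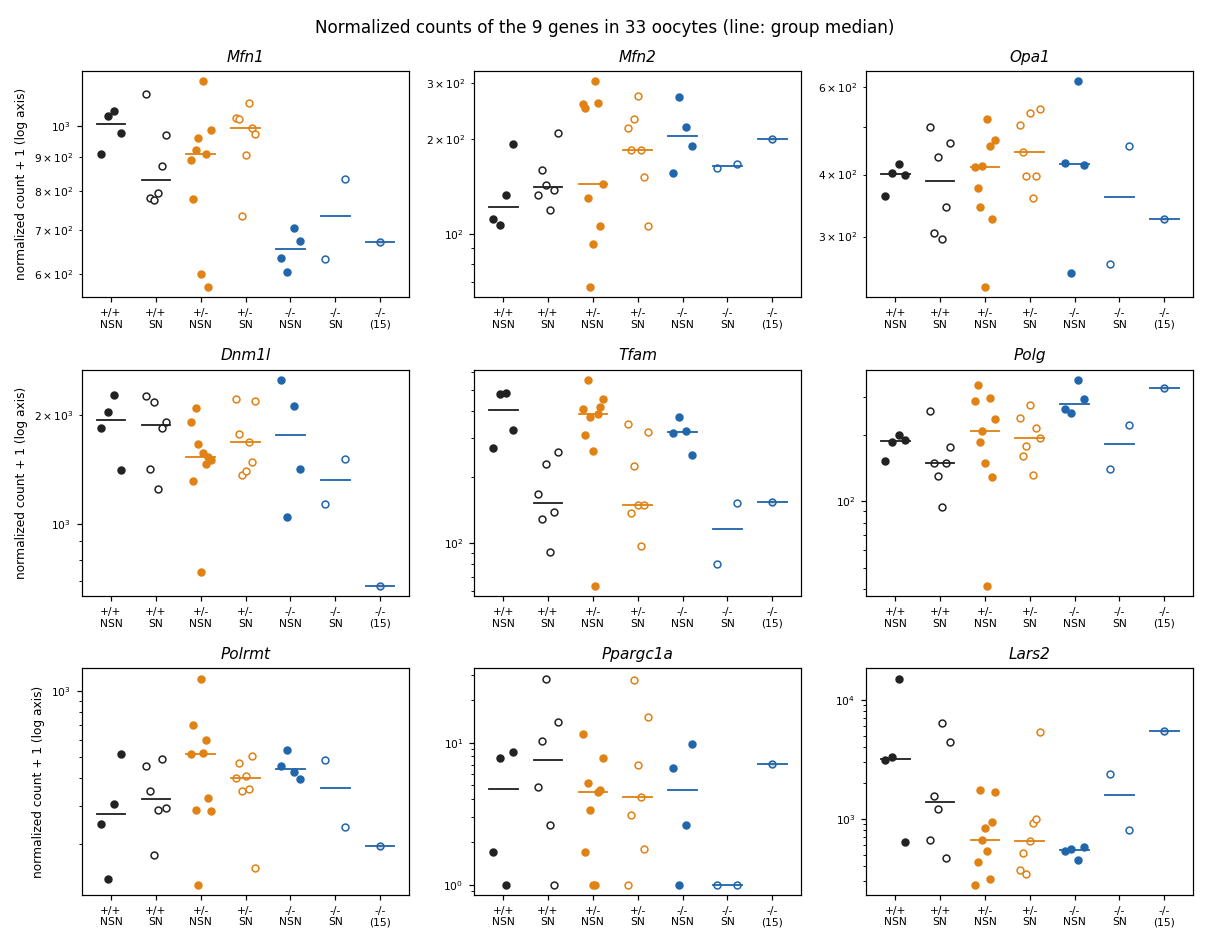
Normalized counts (log10 axis) of the 9 genes in each of 33 oocytes, grouped by genotype and stage, with 1 point for each oocyte (a count of 1 added), a line at the group median and oocyte 15 on its own. Mfn1 and Opa1 vary little, the Tfam median is lower in SN than in NSN oocytes of each genotype, and Lars2 runs from 279 to 15018.

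Mfn1 (chr3:32529465-32579239, plus strand, GRCm38) encodes mitofusin 1. It read 907, 976, 1037 and 1054 in the Nlrp5 +/+ NSN oocytes and 604, 634, 672 and 704 in the Nlrp5 -/- NSN oocytes. All 4 Nlrp5 -/- values lay below all 4 Nlrp5 +/+ values, a pattern shared by 3.14% of 13893 genes, and the difference in log2 mean was -0.60. The Nlrp5 +/- NSN oocytes spanned 573 to 1169 with a median of 908 and overlapped both. At SN the Nlrp5 -/- oocytes, at 632 and 833, overlapped the Nlrp5 +/+ range of 774 to 1118. Over all stages 6 of the 7 Nlrp5 -/- oocytes were below the lowest Nlrp5 +/+ oocyte, with a log2 difference of -0.45. Without oocytes 7, 13 and 14, which had much granulosa marker RNA, the NSN difference was -0.53, and leaving out single oocytes gave -0.65 to -0.57. Between NSN and SN, Mfn1 differed by -0.17, 0.15 and 0.17 on the log2 scale in Nlrp5 +/+, +/- and -/- oocytes, and the ranges overlapped in each.

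Mfn2 (chr4:147873599-147904704, minus strand) encodes mitofusin 2, which also tethers mitochondria to the endoplasmic reticulum. It read 105, 110.2, 131 and 192 in the Nlrp5 +/+ NSN oocytes and 155, 189, 217 and 271 in the Nlrp5 -/- NSN oocytes. The Nlrp5 -/- mean was higher by 0.62 on the log2 scale, and the groups overlapped. In Nlrp5 +/- NSN oocytes it ran from 66.7 to 304, wider than in either other genotype. SN oocytes read 118 to 207 in Nlrp5 +/+, 105 to 272 in Nlrp5 +/- and 160.5 and 165 in Nlrp5 -/-, and overlapped the NSN oocytes of the same genotype.

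Opa1 (chr16:29579334-29654884, plus strand) read 361, 399, 401 and 419 in the Nlrp5 +/+ NSN oocytes and 252, 417, 422 and 617 in the Nlrp5 -/- NSN oocytes. The Nlrp5 -/- values lay on both sides of the Nlrp5 +/+ values, with a log2 difference of 0.11. Over all comparisons of stage and genotype the log2 difference of Opa1 ran from -0.33 to 0.22. Over the 33 oocytes its SD on the log2 scale was 0.32, and 13.6% of the 8520 genes with a mean of at least 100 had a smaller one. For Mfn1 the SD was 0.29, with 7.1% of genes below it, so that both varied less between oocytes than most genes.

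Dnm1l (chr16:16312230-16358959, minus strand) encodes the fission GTPase DRP1, needed in growing oocytes to keep mitochondria dispersed. It read 1410.3 to 2269.8 in the 4 Nlrp5 +/+ NSN oocytes, 739.5 to 2087 in the 9 Nlrp5 +/- NSN oocytes and 1044 to 2494 in the 4 Nlrp5 -/- NSN oocytes. Of the 2 Nlrp5 -/- SN oocytes, oocyte 7, at 1136, was below the Nlrp5 +/+ SN range of 1247 to 2259 and oocyte 31, at 1514, within it, and the log2 difference was -0.45. Oocyte 15, at 676, was the lowest of all 33 oocytes, and it also had the lowest sum of mitochondrially encoded mRNA and the highest granulosa marker sum, whose part in this value was not tested. Across the 33 oocytes Dnm1l correlated with the sum of mitochondrially encoded mRNA (Spearman 0.67) and with the mean level of long relative to short transcripts (0.59). Values of 1 library share its size factor, so these are descriptions. An antisense gene model, Gm49521, overlaps Dnm1l, and the library kit does not keep the strand.

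Tfam (chr10:71225464-71238280, minus strand) had a lower mean in SN than in NSN oocytes of each genotype. Polg did too, by less (-0.19, -0.06 and -0.68 in Nlrp5 +/+, +/- and -/-). In Nlrp5 +/+ it read 270.1, 327, 476 and 484 in NSN oocytes and 89.8, 128, 137, 166, 227 and 259 in SN oocytes. Every SN oocyte was below every NSN oocyte, as for 6.08% of 13629 genes, and the SN mean, 168 ± 63.9 (SD, n = 6 oocytes), was lower than the NSN mean, 389 ± 107 (n = 4), with a log2 difference of -1.21. In this comparison 8.86% of genes were at least 2-fold lower.

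In Nlrp5 -/- oocytes Tfam read 251, 316, 324 and 373 at NSN and 78.8 and 151 at SN. The groups did not overlap, as for 10.8% of 13897 genes in the lower direction, and the log2 difference was -1.45, with 11.5% of genes at least 2-fold lower. It was -1.06 without oocyte 7 and -0.92 without oocytes 7, 13 and 14, which ends the 2-fold call. In Nlrp5 +/- oocytes Tfam ran from 62.5 to 554 at NSN, with a median of 385, and from 95.6 to 348 at SN, with a median of 148. These ranges overlapped, through oocyte 61 at 62.5 and the SN oocytes 37 and 55 at 348 and 318, and the log2 difference of means, -0.82, was within 2-fold. It was -1.003, just past 2-fold, without oocyte 37, and the difference of the medians over oocytes was -1.37.

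Within a stage, the genotypes overlapped in Tfam. The Nlrp5 -/- minus Nlrp5 +/+ difference was -0.30 at NSN and -0.54 at SN on the log2 scale, the latter from -1.08, past 2-fold, without oocyte 31 to -0.15 without oocyte 7, and the Nlrp5 +/- minus Nlrp5 +/+ difference was -0.12 and 0.27. The rank correlation of Tfam with the staging score, which is high where NSN markers are high relative to SN markers, was 0.84, 0.63 and 0.68 in the 10 Nlrp5 +/+, 16 Nlrp5 +/- and 7 Nlrp5 -/- oocytes. The gene most like Tfam in its ranks over 33 oocytes was Ddx4 (0.90), a germ cell RNA helicase, which was picked out after its value was seen. Tfam also followed the long minus short transcript index, with a rank correlation of 0.84, 0.53 and 0.39 in Nlrp5 +/+, +/- and -/- oocytes. That index was -0.16 to 0.61 in Nlrp5 +/+ NSN and -0.49 to 0.16 in Nlrp5 +/+ SN oocytes. In Nlrp5 -/- oocytes it was -0.06 to 0.79 at NSN and -0.13 and -0.02 at SN. For Nlrp5 +/- oocytes it was -0.84 to 0.16 at NSN and -0.26 to 0.32 at SN. The part of this index in the Tfam differences was not tested.

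Polg (chr7:79446231-79466362, minus strand) encodes the catalytic subunit of the mitochondrial DNA polymerase. It read 152, 185, 190.0 and 199 in the Nlrp5 +/+ NSN oocytes and 251, 261, 293 and 356 in the Nlrp5 -/- NSN oocytes. All Nlrp5 -/- values were above all Nlrp5 +/+ values, as for 3.95% of 13893 genes, with a log2 difference of 0.67 that was 0.84 without oocytes 7, 13 and 14. The Nlrp5 +/- NSN oocytes ran from 40.3 to 339 and overlapped both groups. At SN the Nlrp5 -/- oocytes read 139.7 and 223, inside the Nlrp5 +/+ range of 93.1 to 257, and the log2 difference was 0.19. Within Nlrp5 -/- both SN oocytes were below the 4 NSN oocytes, as for 10.8% of genes, with a log2 difference of -0.68 that was -1.05 without oocyte 31 and -0.38 without oocyte 7. Over all stages 4 of the 7 Nlrp5 -/- oocytes were above the highest of the 10 Nlrp5 +/+ oocytes, with a log2 difference of 0.65. Polg overlaps Fanci, which lies on the opposite strand, so reads in the overlap cannot be told apart.

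Polrmt (chr10:79736123-79746581, minus strand) encodes the mitochondrial RNA polymerase. It read 138, 247, 303 and 518 in the Nlrp5 +/+ NSN oocytes and 398, 427, 454 and 536 in the Nlrp5 -/- NSN oocytes. The groups overlapped through oocyte 87 at 518, and the log2 difference was 0.59, or 0.98 without that oocyte. Nlrp5 +/- NSN oocytes ran from 129.8 to 1137, the widest range of this gene, with a median of 514. Their log2 difference from Nlrp5 +/+ NSN oocytes was 0.73. With single oocytes left out it ran from 0.47, without oocyte 56 at 1137, to 1.12, past 2-fold, without oocyte 87, and the Nlrp5 -/- minus Nlrp5 +/+ difference from 0.35 to 0.98. At SN the medians were 319, 401 and 362 in Nlrp5 +/+, +/- and -/- oocytes, and the groups overlapped.

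Ppargc1a (chr5:51454250-51567726, minus strand) had counts in 25 of 33 oocytes. Summed over the oocytes of a group, it had 16 counts in Nlrp5 +/+ NSN (0.433 CPM, exact Poisson 95% interval 0.248 to 0.703), 57 in Nlrp5 +/+ SN (0.844 CPM, 0.639 to 1.09), 32 in Nlrp5 +/- NSN (0.501 CPM), 45 in Nlrp5 +/- SN (0.881 CPM) and 17 in Nlrp5 -/- NSN (0.551 CPM). The 2 Nlrp5 -/- SN oocytes had 0 of 16368233 counts, with an exact Poisson upper limit of 0.225 CPM. This lay below the lower limits of the intervals of the other groups, 0.248 to 0.642 CPM, but close to the lowest of them. In each other group at least 1 oocyte was also at 0. The intervals cover counting error only and not the spread between oocytes, and this group has 2 oocytes.

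**Figure D2:**
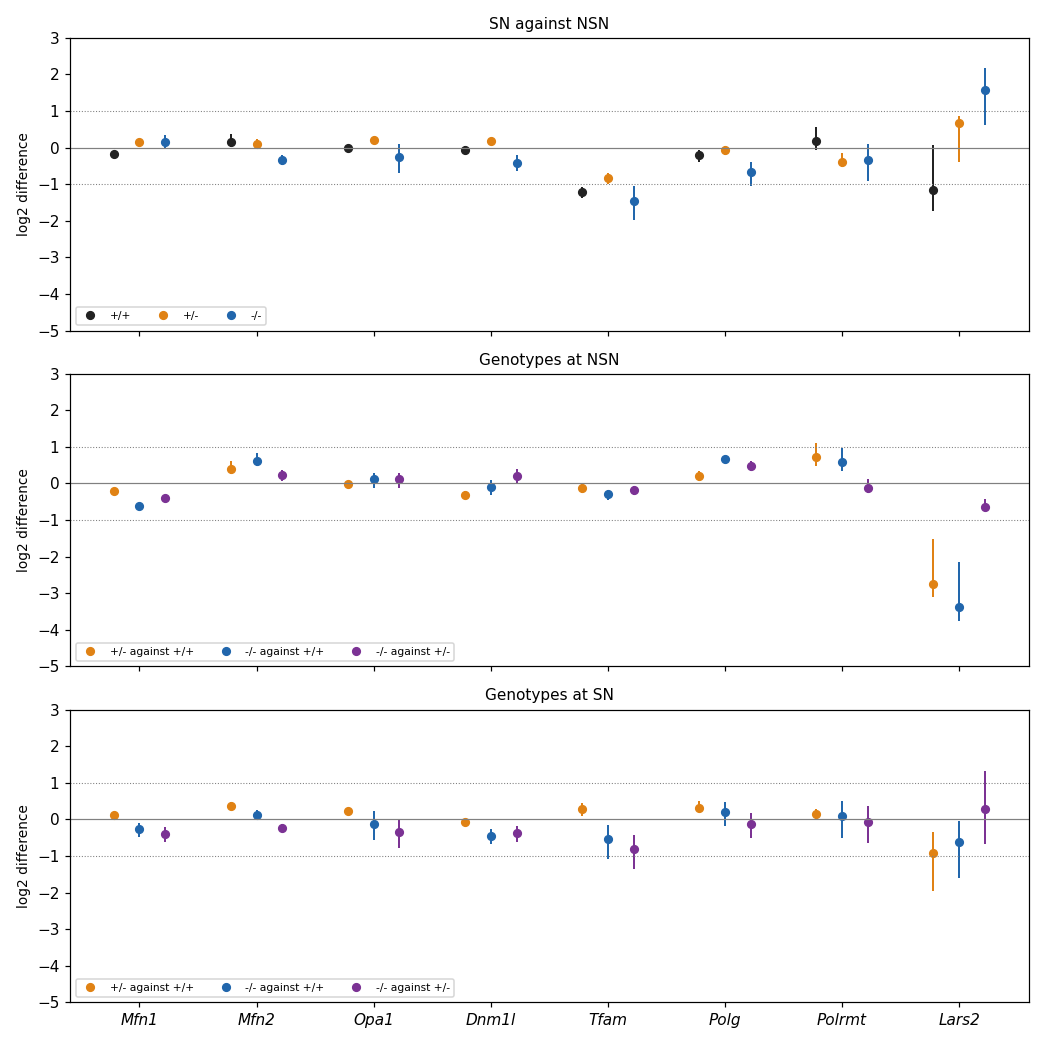
Difference in log2 mean normalized count of 8 genes for SN minus NSN in each genotype and for the genotype comparisons, with lines from the lowest to the highest value when each oocyte is left out in turn and dotted lines at 2-fold. Tfam is below 0 in all 3 stage comparisons (-1.21, -0.82 and -1.45), and Lars2 has both the lowest value (-3.37, Nlrp5 -/- minus Nlrp5 +/+ at NSN) and the highest (1.59, SN minus NSN in Nlrp5 -/-).

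Lars2 (chr9:123366927-123462666, plus strand) had by far the widest spread between oocytes in its counts, which may include reads from the shared sequence described below. In the Nlrp5 +/+ NSN oocytes it read 635 (oocyte 87), 3108 (70), 3303 (78) and 15018 (79), a 23.6-fold range within 1 genotype and stage. In the Nlrp5 +/+ SN oocytes it read 472 (85), 660.3 (69), 1206 (77), 1561 (72), 4393 (86) and 6423 (80). High and low oocytes thus occurred at both stages.

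In the 9 Nlrp5 +/- NSN oocytes Lars2 ran from 279 to 1743 with a median of 663. In the 7 Nlrp5 +/- SN oocytes it read 346 to 998 in 6 and 5328 in oocyte 55. The 4 Nlrp5 -/- NSN oocytes were close together, at 452, 537, 556 and 579. The 2 Nlrp5 -/- SN oocytes read 812 (31) and 2379 (7), and oocyte 15 read 5477. Over 1000 normalized counts were found in 12 of 33 oocytes: 7 of 10 Nlrp5 +/+, 3 of 16 Nlrp5 +/- and 2 of 7 Nlrp5 -/-. Over 3000 were 7 oocytes, of which 5 were Nlrp5 +/+, 1 Nlrp5 +/- and 1 Nlrp5 -/-.

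**Figure D3:**
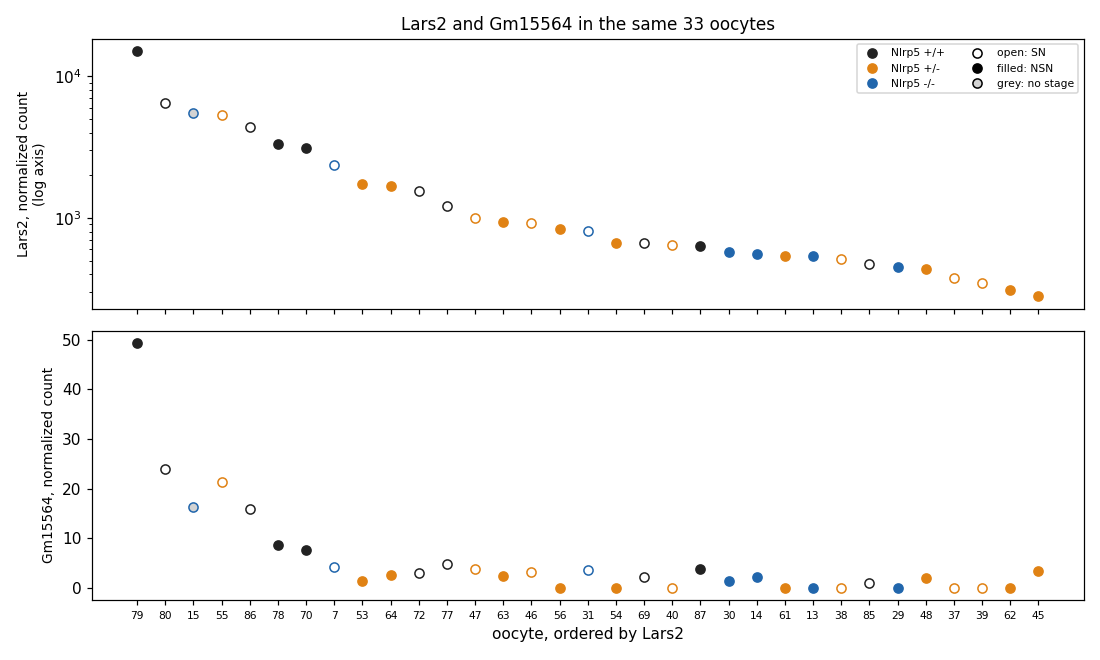
Lars2 normalized counts (log10 axis) of the 33 oocytes in rank order, coloured by genotype and filled by stage, above the normalized counts of Gm15564 (linear axis) in the same order. The 7 oocytes above 3000 include oocyte 79 at 15018, and the 7 with the most Gm15564 are the same 7.

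The highest oocyte was 53.7-fold above the lowest. The SD over oocytes on the log2 scale was 1.45, above that of 99.5% of 8520 genes and of 99.9% of the 1650 genes of a similar mean, whose median SD was 0.38. Oocyte 79 had 19770 Lars2 counts and the oocyte with the fewest 268. Over the 33 oocytes the rank correlation of Lars2 was 0.03 with total counts, -0.05 with the granulosa marker sum and -0.02 with the sum of mitochondrially encoded mRNA, but these values differed in sign between the genotypes. For granulosa markers it was -0.745 in the 10 Nlrp5 +/+, 0.22 in the 16 Nlrp5 +/- and 0.46 in the 7 Nlrp5 -/- oocytes. For total counts it was -0.055, -0.45 and 0.39 in that order, and for mitochondrially encoded mRNA 0.24, 0.29 and -0.93. Of the 10 sets of libraries that share the first index, the one with oocytes 77 to 80 held Lars2 values from 1206 to 15018, and 5 others also held an oocyte above 2000.

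The means of Lars2 therefore turned on few oocytes. At NSN the Nlrp5 -/- mean, 531 ± 55.6 (SD, n = 4), was below the Nlrp5 +/+ mean, 5516 ± 6449.9 (n = 4). The log2 difference was -3.37, and -2.14 without oocyte 79. All Nlrp5 -/- oocytes were below all Nlrp5 +/+ oocytes, as for 3.14% of genes, but oocyte 87, at 635, was close to the highest Nlrp5 -/- oocyte, at 579. In this comparison 3.25% of genes were at least 2-fold lower. The Nlrp5 +/- minus Nlrp5 +/+ difference at NSN was -2.74, with overlap, and -1.51 without oocyte 79, in a comparison where 1.12% of genes were at least 2-fold lower. Theca and stroma markers also moved between Nlrp5 +/- and Nlrp5 +/+ oocytes, with 4 of 7 at least 2-fold higher at NSN (median 1.5) and 5 of 8 at SN (median 1.19), and of the granulosa markers 3 of 6 were at NSN (median 0.83) and 1 of 6 at SN (median 0.33). Of all genes 2.06% at NSN and 1.18% at SN were. The part of these markers in the Lars2 differences was not tested. At SN the differences from Nlrp5 +/+ were -0.62 for Nlrp5 -/- and -0.91 for Nlrp5 +/-, with overlap in both. They too turned on few oocytes: with single oocytes left out the first ran from -1.59 (without oocyte 7) to -0.04 (without 31), and the second from -1.95 (without 55) to -0.35 (without 80). The second was past 2-fold in 5 of the 13 cases. The comparisons of Nlrp5 -/- and of Nlrp5 +/- share the same Nlrp5 +/+ oocytes.

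Without regard to stage, the Lars2 difference from Nlrp5 +/+ was -1.25 in Nlrp5 -/- and -1.83 in Nlrp5 +/- oocytes, where 2.27% and 0.293% of genes were at least 2-fold lower. The first was -0.65 without oocyte 79, within 2-fold, and -2.05 without oocyte 15, whose granulosa marker sum was the highest. The second was -1.22 without oocyte 79 and -2.30 without oocyte 55. From NSN to SN the Lars2 mean differed by -1.17 in Nlrp5 +/+, by 0.66 in Nlrp5 +/- and by 1.59 in Nlrp5 -/-. Each of these turned on 1 oocyte: without oocyte 79 the Nlrp5 +/+ value was 0.06, without oocyte 55 the Nlrp5 +/- value was -0.38, and without oocyte 7 the Nlrp5 -/- value was 0.61. In Nlrp5 +/+ it was also within 2-fold without oocyte 69 (-0.97) or 85 (-0.95). Both Nlrp5 -/- SN oocytes were above the 4 NSN oocytes, as for 9.46% of genes, and 3.37% were at least 2-fold higher.

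The 3′UTR of Lars2 holds a run of 55 bases that occurs at 3 other places in the genome assembly searched. Copies in sequence that the assembly lacks would not be found by this search. The run is shown in part because reads from its other copies could be counted on Lars2. In GRCm39, the build of the reference used for this search, it lies at chr9:123291110-123291164 (plus strand), and its first 30 bases are:
Lars2 3′UTR: gcagaattcaccaagcgttggattgttcac
The other copies are at chr16:35802115-35802169 (minus strand), inside the gene model Gm15564, at chr19:40108268-40108322 (plus) and at chrX:21546802-21546856 (minus). How reads with several matches were counted is not given in the sources used here. Gm15564 was the only entry of the ribosomal RNA list in the count table, and it ranked with Lars2 over the 33 oocytes (Spearman 0.79), with 0.94, 0.50 and 0.96 within Nlrp5 +/+, +/- and -/-. Oocyte 79 had 65 counts on Gm15564 and oocyte 80 had 29, against 5 or fewer in each oocyte with Lars2 below 3000. The part of this shared run in the Lars2 counts was not tested. None of 17825 runs of 20 bases in the Lars2 transcripts occurred in the mitochondrial chromosome. Apart from Gm15564, nuclear ribosomal RNA sequences were not searched for such runs.

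The genes whose ranks over 33 oocytes were most like those of Lars2 were Trio (Spearman 0.86), Tnrc6c (0.84), Vps13d (0.81), Bptf (0.80) and Tcf20 (0.80). The least alike were Gm17029 (-0.80), Ccno (-0.80) and Klhl8 (-0.79). The canonical transcripts of the 100 most alike genes had a median length of 7616 bases, against 3106 for the 100 least alike and 3393 for all 8490 genes compared with a known length, while that of Lars2 has 3934. With the long minus short transcript index of the oocytes, Lars2 itself had a rank correlation of 0.11, and of 0.345, -0.044 and -0.50 within Nlrp5 +/+, +/- and -/- oocytes. The other mitochondrial aminoacyl-tRNA synthetases and amidotransferase subunits did not share the ranks of Lars2: over 21 genes the correlation ran from -0.61 to 0.38 with a median of -0.09. Among the 7 of them with a mean of at least 100 the SD on the log2 scale was 0.32 to 0.69. Among the 36 pairs of members, Lars2 and Polrmt were the most opposed (-0.64) and Opa1 and Dnm1l the most alike (0.55).

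Of the 8 members with a mean of at least 10 normalized counts, 2 were past 2-fold between NSN and SN in Nlrp5 +/+ oocytes (Tfam and Lars2, where 12.9% of genes were), none in Nlrp5 +/- (9.29%) and 2 in Nlrp5 -/- oocytes (Tfam and Lars2 in opposite directions, 14.9%). Between Nlrp5 -/- and Nlrp5 +/+ oocytes only Lars2 was past 2-fold at NSN (8.28% of genes) and no member at SN (10.1%). Between Nlrp5 +/- and Nlrp5 +/+ oocytes Lars2 was past 2-fold at NSN (3.18%) and no member at SN (2.0%). Between Nlrp5 -/- and Nlrp5 +/- oocytes no member was, at NSN (6.56%) or at SN (9.0%). At SN this rested on single oocytes: Tfam, at -0.81, was at -1.35 without oocyte 31, and Lars2, at 0.29, was at 1.33 without oocyte 55 and at -0.68 without oocyte 7. All 8 members had a mean of at least 100, and among genes with such a mean the shares were lower (5.06% from NSN to SN in Nlrp5 +/+ and 2.04% for Nlrp5 -/- minus Nlrp5 +/+ at NSN). No test stands behind these counts, since each group is 1 sample. The median difference of the 9 members was -0.06, 0.15 and -0.35 from NSN to SN in Nlrp5 +/+, +/- and -/- oocytes, beside 0.03, -0.05 and -0.05 over all genes. For Nlrp5 -/- minus Nlrp5 +/+ it was 0.08 at NSN and -0.27 at SN, beside 0.00 over all genes at both stages. The NSN value was that of Ppargc1a. Over the 8 members with a mean of at least 10 the median was 0.008 at NSN and -0.19 at SN.

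Other genes of the same processes were taken from lists that leave out the 9 members. Of 18 further fusion and fission genes, 2 were at least 2-fold lower in SN than in NSN oocytes of Nlrp5 +/+: Slc25a46, an outer membrane fission factor (-1.90 on the log2 scale), and Miga2 (-1.76). Of 28 genes of mitochondrial DNA replication and the nucleoid, Polg2, the accessory subunit of the polymerase, was lower (-1.14). Of 23 genes for mitochondrial transcription and RNA, Mterf3, a negative regulator of mitochondrial transcription, was lower (-1.48), with 181 to 345 normalized counts in NSN and 41.2 to 117 in SN oocytes and no overlap, as was Hsd17b10 (-1.07). Of 19 biogenesis regulators, the deacetylase Sirt1 (-1.59) and Gabpa, the DNA-binding subunit of GABP (-2.10), were lower. Of 21 mitochondrial synthetase genes, Mars2, Hars2, Qrsl1, Yars2 and Nars2 were lower (-1.45 to -1.14). None of these nuclear genes was at least 2-fold higher, while 4.02% of all genes were and 8.86% were lower. No gene of the lists for cristae and the inner membrane (15 genes) or for mitochondrial transport and mitophagy (11) was past 2-fold. The medians of the nuclear lists ran from -0.14 to 0.16, beside 0.03 for all genes. In the other genotypes fewer synthetase genes were lower in SN oocytes, 1 of 20 in Nlrp5 +/- and 1 of 20 in Nlrp5 -/-, and this difference between genotypes was not tested. The median of this list was -0.12 in Nlrp5 +/+, -0.34 in Nlrp5 +/- and -0.14 in Nlrp5 -/-, so it was lowest in Nlrp5 +/-. Of the other lists in Nlrp5 +/- oocytes, 1 of 18 fusion and fission genes, 2 of 27 for mitochondrial DNA, 2 of 23 for transcription and 2 of 19 biogenesis regulators were lower (7.27% of all genes) and none higher (2.03%). In Nlrp5 -/- oocytes 4 of 19, 2 of 28, 1 of 23 and 4 of 19 were lower in the same order, as was 1 of 11 transport genes, beside 11.5% of all genes. A biogenesis regulator, Ppard, was higher (1.40), beside 3.37%. Apart from Mterf3 and Sirt1, the genes of these lists were named after their values were seen. Markers of other cell types also moved from NSN to SN in Nlrp5 -/- oocytes. Of granulosa markers 5 of 11 were at least 2-fold lower (median -0.63), as were 2 of 8 theca and stroma markers (median -0.45). Their part in the differences of the lists was not tested.

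The 13 mRNAs encoded by the mitochondrial genome, which POLRMT and TFAM transcribe, differed most in the SN oocytes. In Nlrp5 +/+ SN oocytes their sum was 8460.2 to 30260.4 normalized counts, and in the 2 Nlrp5 -/- SN oocytes it was 5303.5 (7) and 8169 (31). Both Nlrp5 -/- oocytes were thus below the Nlrp5 +/+ oocytes, but oocyte 31 was close to oocyte 80, the lowest of these. All 13 had a mean at least 2-fold lower in Nlrp5 -/-, with a median log2 difference of -1.88, in a comparison where 5.99% of genes were at least 2-fold lower, and for 3 no oocyte overlapped (7.83% of genes in the lower direction). Without oocyte 7, whose granulosa marker sum was 189 CPM against 94.98 to 124 CPM in Nlrp5 +/+ SN oocytes, 9 of 13 were at least 2-fold lower and the median was -1.32, and without oocyte 31 all 13 were and the median was -2.84. These mRNAs are cut from common precursors and are not independent of each other. Against Nlrp5 +/- oocytes at SN all 13 were also at least 2-fold lower in Nlrp5 -/- (median -2.13, 5.59% of all genes). From NSN to SN, 12 of 13 were at least 2-fold lower in Nlrp5 -/- (median -1.87, 11.5% of genes). In Nlrp5 +/+ 3 and in Nlrp5 +/- 4 of 13 were at least 2-fold higher (medians 0.24 and 0.18, 4.02% and 2.03% of genes). mt-Cytb, a subunit of complex III, read 3616 to 9162 in Nlrp5 +/+ SN oocytes and 1546 and 1627 in Nlrp5 -/- SN oocytes (-2.11). mt-Atp6, a subunit of the ATP synthase, had the largest difference (-4.13), but it ran from 4.94 to 632 within the Nlrp5 +/+ SN oocytes.

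At NSN the mitochondrially encoded mRNAs showed no such shift: the median log2 difference of Nlrp5 -/- from Nlrp5 +/+ was -0.05, with mt-Atp6 (2.20) and mt-Atp8 (1.22) at least 2-fold higher. Oocyte 15 had a sum of 1403, the lowest of all. Of the nuclear lists at NSN, 3 genes were past 2-fold, in a comparison where 5.03% of all genes were at least 2-fold higher and 3.25% lower. Of 15 genes for cristae and the inner membrane, Atad3a, a protein of the inner membrane and the nucleoid, was higher in Nlrp5 -/- (1.32), at 197 to 220.1 normalized counts against 56.1 to 143 in Nlrp5 +/+ oocytes, with no overlap, as for 3.95% of genes in that direction. Of 19 fusion and fission genes Miga2 was higher (1.05), and of 21 synthetase genes Hars2 was lower (-1.72). None was past 2-fold of 11 for transport, 28 for mitochondrial DNA, 23 for transcription and 19 biogenesis regulators. Miga2, Hars2 and mt-Atp8 were named after their values were seen. At SN, of the nuclear list genes measured, 6 were at least 2-fold higher in Nlrp5 -/- (4.1% of all genes) and 2 lower (5.99%). Of 18 fusion and fission genes, Miga2 (1.11) and Pld6 (1.19) were higher and Slc25a46 lower (-1.03). Of 27 genes of mitochondrial DNA replication and the nucleoid, Mpv17 was higher (1.18) and Primpol, a primase-polymerase, lower (-1.01). Of 23 for mitochondrial transcription and RNA, Tbrg4, a regulator of mitochondrial mRNA stability (1.09), and Hsd17b10 (1.31) were higher, as was Gabpa (1.16) of 19 biogenesis regulators. None of 15 cristae, 11 transport and 20 synthetase genes was past 2-fold, and those named here other than Primpol and Tbrg4 were picked out after their values were seen. Markers of other cell types moved in the same comparisons. At NSN, 7 of the 10 granulosa markers measured were at least 2-fold higher in Nlrp5 -/- (median 2.94, with Inha and Gja1 at 5.94 and 6.31), as were 6 of 8 theca and stroma markers (median 1.93). At SN, 4 of 8 granulosa markers (median 1.44) and 3 of 6 theca and stroma markers (median 0.82) were. Their part in these differences was not tested.

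**Figure D4:**
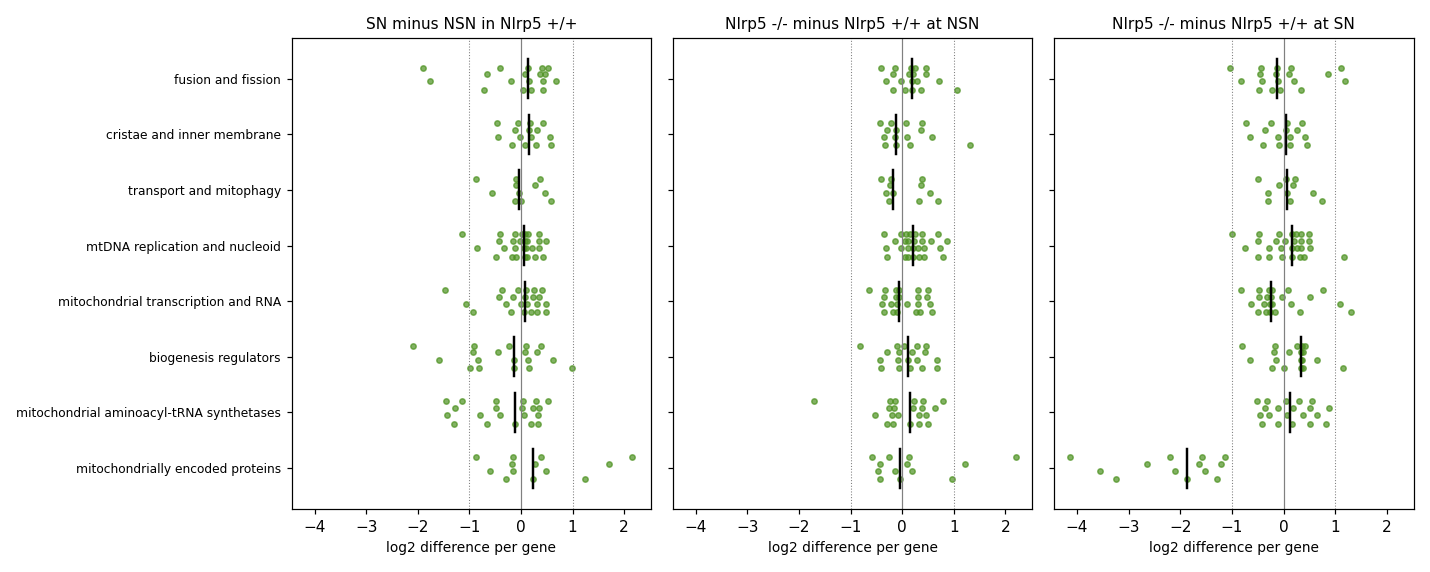
Difference in log2 mean normalized count for genes of the mitochondrial lists and the 13 mitochondrially encoded proteins in 3 comparisons, with 1 point for each gene, a bar at the list median and lines at 2-fold. The mitochondrially encoded genes all lie below -1 for Nlrp5 -/- minus Nlrp5 +/+ at SN (median -1.88), while the medians of the nuclear lists run from -0.25 to 0.33 there.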

How the data were processed

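Libraries were made from the RNA of single oocytes by G&T-seq, which is based on Smart-seq2, with Nextera XT, a kit that does not keep strand, and sequenced by the authors. Per the labels, processing used Trim Galore and, against GRCm38, HISAT2 (the study's text names GRCm39), and the deposited table holds raw counts per gene. Tool versions are not given in the sources used here. Of 35373 entries, 52 repeated genes were left out. The authors' tables of their own comparisons (fold changes and adjusted p-values) were not used.

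The members and gene lists were chosen with earlier results of these data known. Counts were divided by median-of-ratios size factors over 33 oocytes, and differences are log2 of the ratio of means with a pseudocount of 1. Past 2-fold was counted among genes with a mean of at least 10. Named list genes are the at most 4 of each list with the largest size past 2-fold and a mean of at least 100, others being marked as named later. Likeness is Spearman's correlation among 8520 genes with a mean of at least 100. The staging score uses 105 NSN and 59 SN markers. The long minus short index contrasts the 1388 genes with the longest and the 1388 with the shortest canonical transcripts. The direction of planted fold changes was checked on simulated counts, which had less spread between oocytes than Lars2 had here. Alternatives were TMM factors (edgeR 4.0.16, R 4.3.3), total counts, factors within a comparison, medians, pooled sums, mean logs, a pseudocount of 5, other filters and left-out oocytes. Scripts ran in Python 3.11.15 (pandas 2.3.3, numpy 2.4.6, scipy 1.17.1), with matplotlib 3.10.9 for the figures.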

Additional observations from a re-analysis of the deposited data

Results flagged for a closer look

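In 45 groups of 4 to 9 oocytes (each gene in each genotype and stage), the highest and lowest oocyte were compared with the rest by Dixon's criterion, which chance meets in about 1 group in 20. It was met in 5, all of Nlrp5 +/- oocytes. In oocyte 56 (NSN) Dnm1l read 739.5, against 1319 to 2087 in the other NSN oocytes. In oocyte 61 (NSN) both Tfam, at 62.5 against 263 to 554, and Polg, at 40.3 against 129 to 339, were low. Oocyte 61 also had the highest theca and stroma marker sum of the Nlrp5 +/- oocytes, 243 CPM. In oocyte 55 (SN) Polrmt was low, at 155 against 349 to 503, and Lars2 high, at 5328 against 346 to 998.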

How the results depend on the processing

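Of 258 alternative medians of the 9 members, 255 moved by less than the spread between oocytes and 3 by more, and of 2322 alternative differences of single members 2296 did, 25 moved further and 1 that was past 2-fold changed sign. That one was Lars2 from NSN to SN in Nlrp5 +/+, at 0.062 without oocyte 79 (-1.73 to 0.062 over the left-out oocytes). The median from NSN to SN in Nlrp5 -/- was -0.64 to -0.33 with single oocytes left out, and that of Nlrp5 -/- minus Nlrp5 +/- at SN -0.60 to -0.21. The median of Nlrp5 -/- minus Nlrp5 +/+ at NSN was 0.38 without oocytes 7, 13 and 14. This median, like that of 0.08 over all oocytes of the comparison, was the value of Ppargc1a, which is close to the limit of detection. The shares of genes past 2-fold depended on the filter: of 24 alternative shares 17 moved by over 1.5 times. Requiring a mean of at least 100 lowered them from NSN to SN to 5.06%, 2.99% and 5.57% in Nlrp5 +/+, +/- and -/-, for Nlrp5 -/- minus Nlrp5 +/+ to 2.04% at NSN and 3.65% at SN, for Nlrp5 +/- minus Nlrp5 +/+ to 0.35% and 0.085%, and for Nlrp5 -/- minus Nlrp5 +/- to 1.5% and 2.98%. With no filter that of Nlrp5 -/- minus Nlrp5 +/+ at NSN was 12.5% and those of Nlrp5 +/- minus Nlrp5 +/+ were 8.05% at NSN and 6.02% at SN. With Nlrp5 +/- oocyte 61 counted as SN and 55 as NSN, the SN minus NSN difference in Nlrp5 +/- became -1.22 for Tfam and -1.13 for Lars2, whose sign turned from 0.66, but these oocytes were picked with their values known, so the exchange supports nothing. With 2 Nlrp5 -/- SN oocytes, every value of that group rests on either oocyte alone. Leaving out each oocyte for the mitochondrially encoded mRNAs was chosen after seeing the data. No paired analysis was possible because the numbers in the labels are unique across groups and no mouse is named.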

Other observations

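Neighbours in rank differed between the members. Over 33 oocytes and 8520 genes, Dnm1l was most like Fbxo30 (Spearman 0.88), Polrmt most like Slc35e4 (0.87), Mfn2 most like Cntn2 (0.83), Mfn1 most like Med23 (0.77), Opa1 most like Foxj3 (0.74) and Polg most like Aplp2 (0.72). These genes were named after their values were seen, and the values share library size and RNA quality within an oocyte. Fanci, which overlaps Polg on the opposite strand, was among the 5 genes most like Opa1 (0.72) and not among those of Polg.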
